A study of Mus musculus with 70 samples.

Results

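DNA break sensing and repair genes were followed here in microglia, the resident macrophages of the brain, sorted from mice of the Cx3cr1CreERT2 lines. The set was chosen by gene symbol and holds 43 genes of DNA damage signalling and repair, and 42 of them were found in each of the 5 deposited count tables, among 25806 distinct gene identifiers. Mre11 was read under its older symbol Mre11a. The expression of Fen1 was not analysed here, and only its promoter is counted below. The study asked how tamoxifen (TAM), which activates the CreERT2 recombinase, changes gene expression in 2 such lines, named Littman and Jung after the laboratories that made them. Each of the 70 libraries was made by CEL-Seq2, which tags transcripts at their 3' end, from 500 cells sorted from perfused brain as CD11b+ CD45+ Ly6G- CD206-.

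The libraries form 17 groups. The postnatal table holds Littman Cre- TAM (5 libraries), Littman Cre+ TAM (5), Jung oil (5) and Jung TAM (4). The vehicle and UC2288 table holds Littman mice given vehicle with TAM as Cre- (5) or Cre+ (4), vehicle with oil as Cre+ (4), and UC2288 with TAM as Cre- (3) or Cre+ (5). UC2288 is a small molecule used against CDKN1A (p21), an inhibitor of the cell cycle. Separate tables hold adult Littman oil (4) and TAM (3) and adult-titled Jung oil (4) and TAM (4). The BLZ-titled table holds Littman oil (3) and TAM (4) and Jung oil (4) and TAM (4); BLZ945 is an inhibitor of the CSF1 receptor that depletes microglia. Cre- mice are wild type at Cx3cr1. All others carry the Cre gene on 1 Cx3cr1 allele, so that Cre is expressed wherever Cx3cr1 is active and 1 copy of Cx3cr1 is replaced. A reporter, Rosa26YFP, is heterozygous in the postnatal and the BLZ-titled Jung mice. The labels give 4 mg of TAM for adults of 6 to 15 weeks and 100 mg/kg for both UC2288 and BLZ945. The postnatal table and the vehicle and UC2288 table hold pups. Pups received 0.1 mg of TAM (days P1, P3) or 0.2 mg (days P5, P7). The labels do not give the schedule or the age (8 or 14 days) of each pup library. The treatment labels of the 2 Jung adult sets go against their titles: the adult-titled libraries are labelled BLZ945 and the BLZ-titled ones are not. Titles defined the groups, so whether those Jung mice received BLZ945 is uncertain. No label says that libraries of a group came from separate animals, and p-values then measure only the spread between these libraries.

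Cells meet DNA breaks with sensors and signalling kinases and with several repair routes. The MRE11-RAD50-NBN complex binds broken ends and activates the kinase ATM, while ATR with its activator TOPBP1 responds to single-stranded DNA at stalled replication forks. Broken ends are rejoined directly by end joining, or copied from the sister chromatid by homologous recombination in dividing cells. PCNA, the sliding clamp of DNA polymerases, and LIG1, which seals Okazaki fragments, serve replication and repair alike and are abundant in cycling cells. A Cre recombinase cuts DNA at its target sites and can also cut elsewhere, which is why break responses are of interest in Cre mice.

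Promoter stretches are shown for the 4 members that were called between groups of the vehicle set, since these carry the results below. They are the 250 bases before the RefSeq start site (GRCm38.p6), written 5′ to 3′ on the gene's strand. Capitals mark matches, on either strand, to E2F letters (TTTCCCGC, TTTGGCGC, TTTCGCGC or TTTGCCGC), the CCAAT box (CCAAT), or the core of the interferon-stimulated response element (GAAANNGAA). Pcna lies at chr2:132253181-132253430, minus strand. Brca2 lies at chr5:150522371-150522620, plus strand. Atr lies at chr9:95857347-95857596, plus strand. Polk lies at chr13:96542580-96542829, minus strand, and is the more upstream of 2 windows.
Pcna: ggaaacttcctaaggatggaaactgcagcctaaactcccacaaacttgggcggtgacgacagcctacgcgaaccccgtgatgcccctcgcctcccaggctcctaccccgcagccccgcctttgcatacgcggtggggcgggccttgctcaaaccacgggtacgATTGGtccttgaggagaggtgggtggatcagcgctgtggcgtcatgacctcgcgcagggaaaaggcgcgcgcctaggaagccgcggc
Brca2: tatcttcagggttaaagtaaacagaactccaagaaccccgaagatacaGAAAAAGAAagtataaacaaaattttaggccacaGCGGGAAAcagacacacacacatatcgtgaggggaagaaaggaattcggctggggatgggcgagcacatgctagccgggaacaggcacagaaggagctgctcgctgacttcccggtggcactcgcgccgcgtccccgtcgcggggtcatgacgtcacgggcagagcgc
Atr: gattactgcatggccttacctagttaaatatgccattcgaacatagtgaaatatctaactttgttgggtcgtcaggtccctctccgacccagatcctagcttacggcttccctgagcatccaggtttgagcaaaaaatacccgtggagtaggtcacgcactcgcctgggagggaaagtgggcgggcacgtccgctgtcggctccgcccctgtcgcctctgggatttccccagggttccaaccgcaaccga
Polk: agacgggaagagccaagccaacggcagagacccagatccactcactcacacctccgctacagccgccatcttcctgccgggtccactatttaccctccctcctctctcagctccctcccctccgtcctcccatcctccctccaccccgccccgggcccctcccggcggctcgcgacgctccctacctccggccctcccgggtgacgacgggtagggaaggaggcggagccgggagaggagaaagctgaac
The Pcna stretch holds 1 CCAAT box, read on the opposite strand and starting 87 bases before the start site. The Brca2 stretch holds 1 interferon-element core and 1 E2F match, which do not overlap. None of the searched letters, and no p53 half-site, is in the windows of Atr and Polk shown here. RefSeq windows of 300 bases, with 50 bases after the start site included, were found for 37 of the 43 genes. An E2F match was in 8 of these 37 genes (Bard1, Brca2, Chek2, Lig1, Mdc1, Msh6, Topbp1 and Xrcc6). Counted by window, that is 19.0% of 42, against 2.26% of all 32851 promoter windows of the same length. The CCAAT box was in 45.2% of the members' windows against 37.4% of all, the interferon-element core in 11.9% against 8.56%, and the p53 half-site in 4.76% (Fen1 and the other Polk window) against 8.36%. These matches describe letters and say nothing of a factor's binding.

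The members are transcripts of low abundance. A postnatal library held 329329 to 450461 counts, and a vehicle or UC2288 library 116083 to 277680. The adult Littman, adult-titled Jung and BLZ-titled libraries held 288396 to 347941, 274120 to 304794 and 184513 to 236106. Levels are given as CPM, a gene's counts scaled to a common library total, and 1 count is worth 2.22 to 8.61 CPM over the libraries. The 42 members together took 0.115% of all counts in the postnatal table, 0.135% in the vehicle and UC2288 table, and 0.0879% to 0.096% in the other 3. The low-count filter of the test passed 21 members in the postnatal table, 11 in the vehicle and UC2288 table, 12 in each adult table and 9 in the BLZ-titled table. In all, 21 members were never tested, and 7 were tested in every table (Rad50, Atr, Brca2, Parp1, Polb, Pcna and Ddb1). As a check of the labels, Cx3cr1 was at 2237 to 2919 CPM in vehicle Cre- TAM and at 842 to 1545 in the vehicle Cre+ groups. Cdkn1a was at 620.5 to 1048 CPM in vehicle Cre+ TAM, 48.5 to 181 in vehicle Cre+ oil and 60.04 to 136 in vehicle Cre- TAM.

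**Figure D1:**
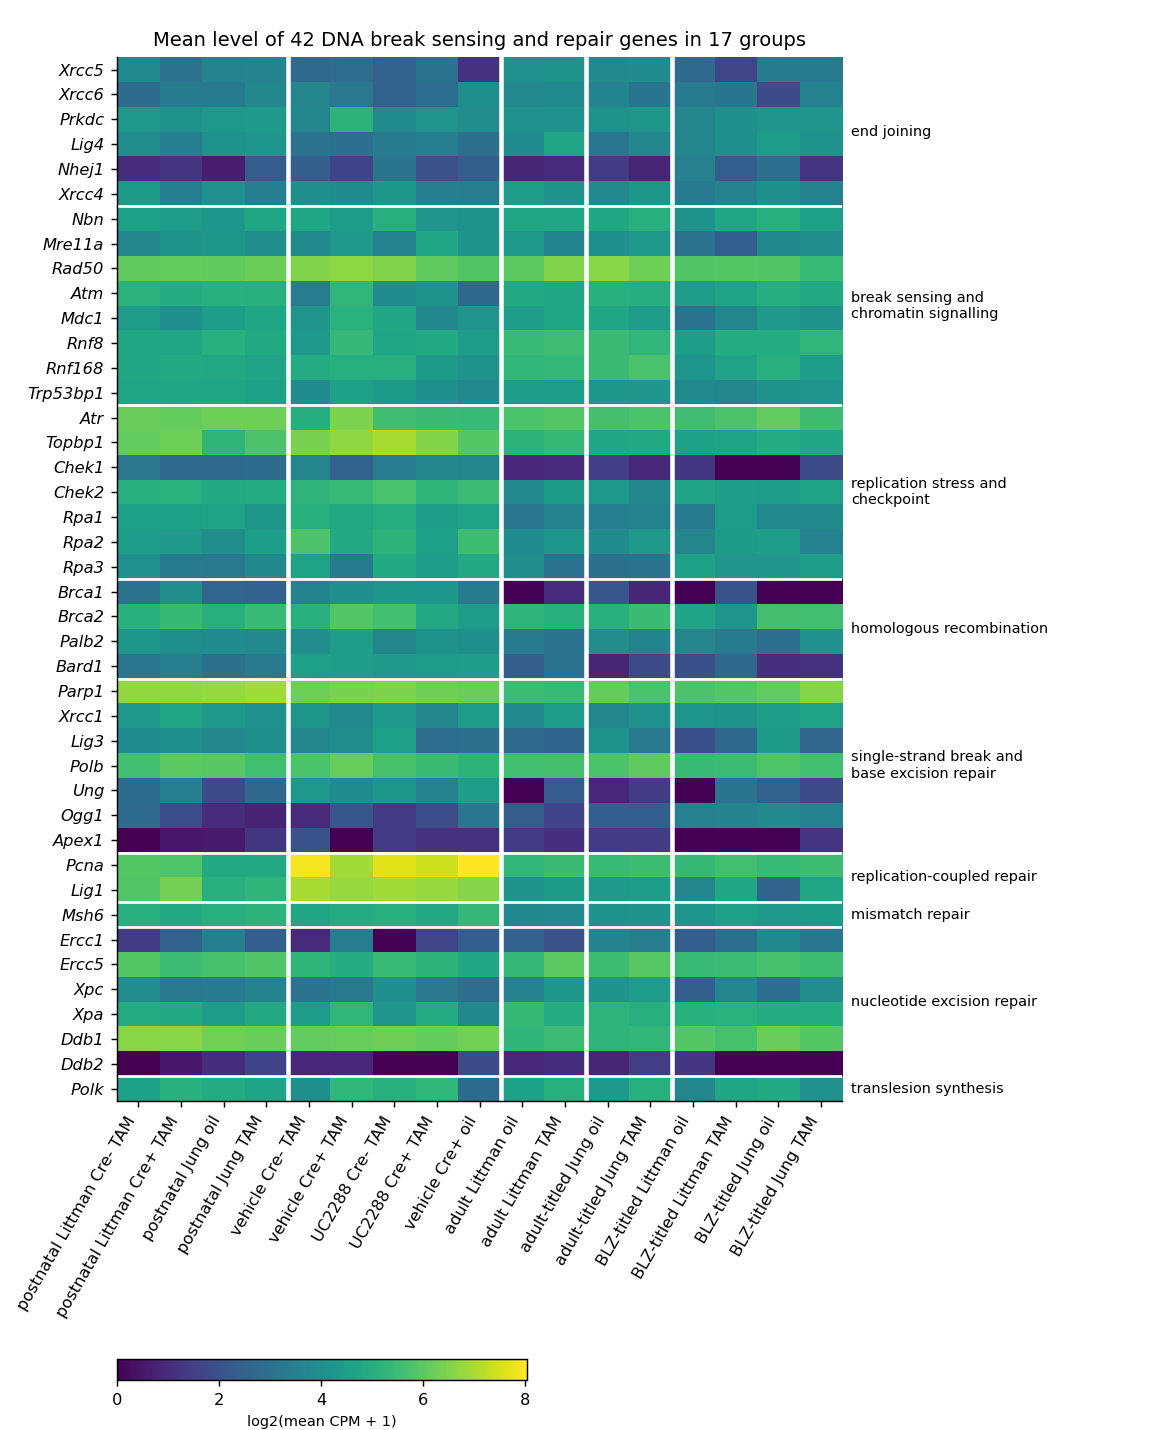
Mean level of each member (rows, grouped by role) in each group (columns, with white lines between count tables), as log2(mean CPM + 1), from 0 in dark blue to about 8 in yellow. Pcna and Lig1 are brightest in the vehicle and UC2288 table, and most end joining genes stay dark in every group.

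Summed over the 42 members, the group means lay between 1062 and 1207 CPM in the postnatal table. They lay between 1231 and 1477 CPM in the vehicle and UC2288 table, 868 and 975 CPM in the 2 adult tables, and 749 and 976 CPM in the BLZ-titled table. Age, treatment and count table change together between most of the sets, so they cannot be told apart in these levels. Within the vehicle and UC2288 table the sum was 1454 ± 87.7 CPM (SD, n = 4) in vehicle Cre+ TAM, 1231 ± 90.0 (n = 4) in vehicle Cre+ oil and 1353 ± 196 (n = 5) in vehicle Cre- TAM. The lowest vehicle Cre+ TAM library (1373 CPM) stood above the highest oil library (1315 CPM), whereas the Cre- TAM libraries spanned 1166 to 1679 CPM and overlapped both. With library totals scaled by TMM the means were 1345, 1264 and 1445 CPM in the same order, so that the place of Cre+ TAM against Cre- TAM turned over. The Cre+ TAM libraries then spanned 1258 to 1415 CPM and the oil libraries 1127 to 1355 CPM, and the separation from oil was lost.

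**Figure D2:**
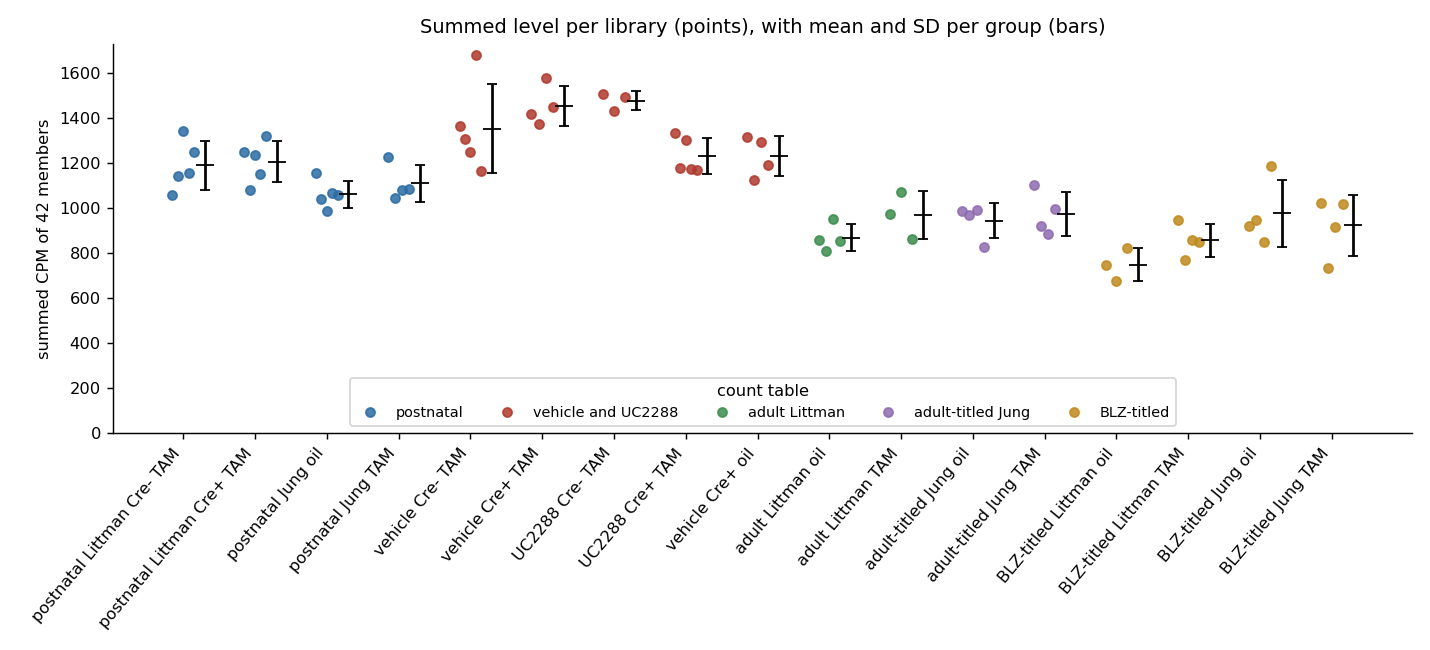
Summed CPM of the 42 members in each of the 70 libraries (points, coloured by count table), with the mean and SD of each group (bars). Group means lie between 1062 and 1477 CPM in the pup sets and between 749 and 976 CPM in the adult and BLZ-titled sets.

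The end joining genes were the least covered role. Xrcc5 and Xrcc6 encode Ku80 and Ku70, the ring that caps broken ends, Prkdc the DNA-dependent kinase that Ku recruits, and Lig4, Xrcc4 and Nhej1 the ligation complex. None of the 6 passed the low-count filter in any table. Prkdc had 328 counts over the 70 libraries and was found in each of them, with group means from 11.7 to 35.3 CPM. Its highest mean, 35.3 ± 24.96 CPM (SD, n = 4), was in vehicle Cre+ TAM, where the libraries ran from 14.8 to 68.9 CPM and overlapped the 6.93 to 21.7 CPM of vehicle Cre+ oil. Nhej1 had 50 counts in all and none in 34 libraries. Summed, the 6 genes made 51.9 to 88.5 CPM in the group means. In the postnatal Littman libraries that sum was 64.4 to 82.5 CPM in Cre- TAM (73.8 ± 7.13, SD, n = 5) and 38.7 to 62.2 CPM in Cre+ TAM (53.7 ± 8.83, n = 5), without overlap. With TMM-scaled totals the ranges met, at 63.8 to 80.2 and 39.1 to 63.9 CPM. This sum was singled out after its values were seen and was not tested.

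Among the sensors, Rad50, the ATPase of the end-binding complex, was the highest member of the role in each table. It was present in all 70 libraries, with group means from 42.1 to 101 CPM. Its partners Nbn (16.0 to 32.7 CPM) and Mre11a (4.32 to 26.3 CPM) were lower and were tested in no table. Rnf8 and Rnf168, ubiquitin ligases that mark the chromatin around breaks, had group means of 18.6 to 46.8 and 16.3 to 51.5 CPM, and Rnf168 was highest in the adult-titled Jung TAM libraries. In the base excision and single-strand break role, Parp1, the sensor of nicked DNA, had group means of 41.9 to 119 CPM and was the highest by table mean except in adult Littman, where Polb was at 48.2 ± 9.09 CPM and Parp1 at 43.7 ± 9.73 (SD, n = 7), within the spread of the libraries. In adult-titled Jung TAM Polb was also above Parp1 (66.2 ± 7.30 against 53.3 ± 13.7 CPM, n = 4), with overlapping libraries. Parp1 was the highest of all members in the postnatal (109.7 ± 17.2 CPM, SD, n = 19) and BLZ-titled (69.9 ± 24.6, n = 15) tables. Rad50 was the highest in both adult tables (75.04 ± 24.6 CPM, n = 7, for Littman and 85.4 ± 19.8, n = 8, for Jung). In the vehicle and UC2288 table it was Pcna, at 198.9 ± 70.2 CPM (n = 21), followed by Lig1 at 112.4 ± 28.3 CPM. These SDs cover groups as well as replicates. A 3' tag method counts about 1 tag per transcript molecule, so levels are not scaled by length.

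The other roles held a few measured genes and several near the limit of detection. In the checkpoint role, Atr and Topbp1 had group means of 30.7 to 88.0 and 23.3 to 129 CPM. Chek2, the effector kinase of ATM, had 12.1 to 52.4 CPM, and Rpa1, Rpa2 and Rpa3, the subunits of the single-strand binding protein, had 7.91 to 33.4, 10.6 to 54.7 and 6.83 to 28.7 CPM. Chek1, the effector kinase of ATR, had no count in 28 libraries. Among homologous recombination genes, only Brca2 (17.3 to 57.5 CPM) passed the low-count filter. Brca1 had 128 counts in all and none in 27 libraries, and its partners Bard1 and Palb2 had 171 and 258. Polb, the gap-filling polymerase of base excision repair, had group means of 35.8 to 71.3 CPM and was seen in all 70 libraries. The scaffold Xrcc1 had 11.7 to 25.5 CPM and its ligase Lig3 2.91 to 22.1 CPM. The glycosylases Ung and Ogg1 had no count in 23 and 28 libraries, and the endonuclease Apex1 none in 52. In nucleotide excision repair, Ddb1, Ercc5 and Xpa had 36.5 to 97.0, 27.1 to 62.8 and 12.5 to 41.0 CPM, while Xpc, Ercc1 and Ddb2 had 219, 110 and 16 counts in all. Msh6, which recognises mismatched bases, had 12.3 to 39.8 CPM, and Polk 5.99 to 37.8 CPM. Of the sensors not named so far, Mdc1, the scaffold on phosphorylated H2AX, had 7.20 to 33.9 CPM and Trp53bp1, which promotes end joining, 11.9 to 25.8 CPM.

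Pcna fell when TAM was given to vehicle-treated Littman Cre+ mice, and Brca2 and Polk were called higher on few counts. This comparison, Cre+ TAM against Cre+ oil, holds the Cre allele constant and asks what TAM does in Cre+ microglia. Of the 11 tested members 3 were called at an edgeR adjusted p below 0.05, 2 higher and 1 lower. Of all 4953 tested genes 31.4% were called, 16.1% higher and 15.3% lower. The share of members called (3 of 11) is near that background. The median log2 fold change was 0.62 over the 11 tested members and 0.00 over all tested genes, which TMM scaling centres. The 11 include Brca2 and Polk, whose testing rested on libraries where they are high, and 31 members were not tested. The 2 medians therefore do not show a shift of the whole set.

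Pcna was at 248, 261, 275 and 256 CPM in the 4 vehicle Cre+ oil libraries and at 156, 131, 112 and 82.7 CPM in the 4 vehicle Cre+ TAM libraries. Every TAM library was below every oil library. The log2 fold change was -1.21 ± 0.287 (SE), from 260.1 ± 11.5 to 120.1 ± 30.7 CPM (SD, n = 4 each, adjusted p 0.00155). Lig1, its partner at the fork, was not called, with overlapping groups at 110.1 ± 22.2 CPM with TAM and 93.6 ± 13.3 CPM in oil.

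Polk encodes polymerase kappa, which copies past damaged bases. Its libraries held 10.1, 0, 0 and 13.9 CPM in oil and 51.8, 13.5, 57.6 and 27.6 CPM with TAM, and the lowest TAM library lay just under the highest oil one. That is 4 counts in the oil group and 37 with TAM, and Polk was called higher (log2 fold change 2.47 ± 0.751, adjusted p 0.0116). Brca2, which acts in homologous recombination, was at 25.3, 29.0, 15.3 and 13.9 CPM in oil and 44.4, 58.5, 64.8 and 62.1 CPM with TAM. The groups did not overlap, and Brca2 was called higher (1.31 ± 0.444, adjusted p 0.0233). Both calls depended on 1 library: without vehicle Cre+ oil replicate 3, the count of members called was 1 (Pcna), with Polk at an adjusted p of 0.0507 and Brca2 at 0.0711. Brca2 was also not called without oil replicate 4 (0.0606) or TAM replicate 3 (0.0576). Limma-voom (0.054) and the fit with no low-count filter (0.0724) did not call it either. With the filter applied to these groups alone, Polk and Brca2 were not tested. In the full fit, Polk passed the filter only through Cre+ TAM libraries, with vehicle or UC2288. Brca2 passed it only with the vehicle Cre+ TAM libraries counted. Both genes were thus tested because of libraries where they are high. Other comparisons of these genes with those libraries share this limit.

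**Figure D3:**
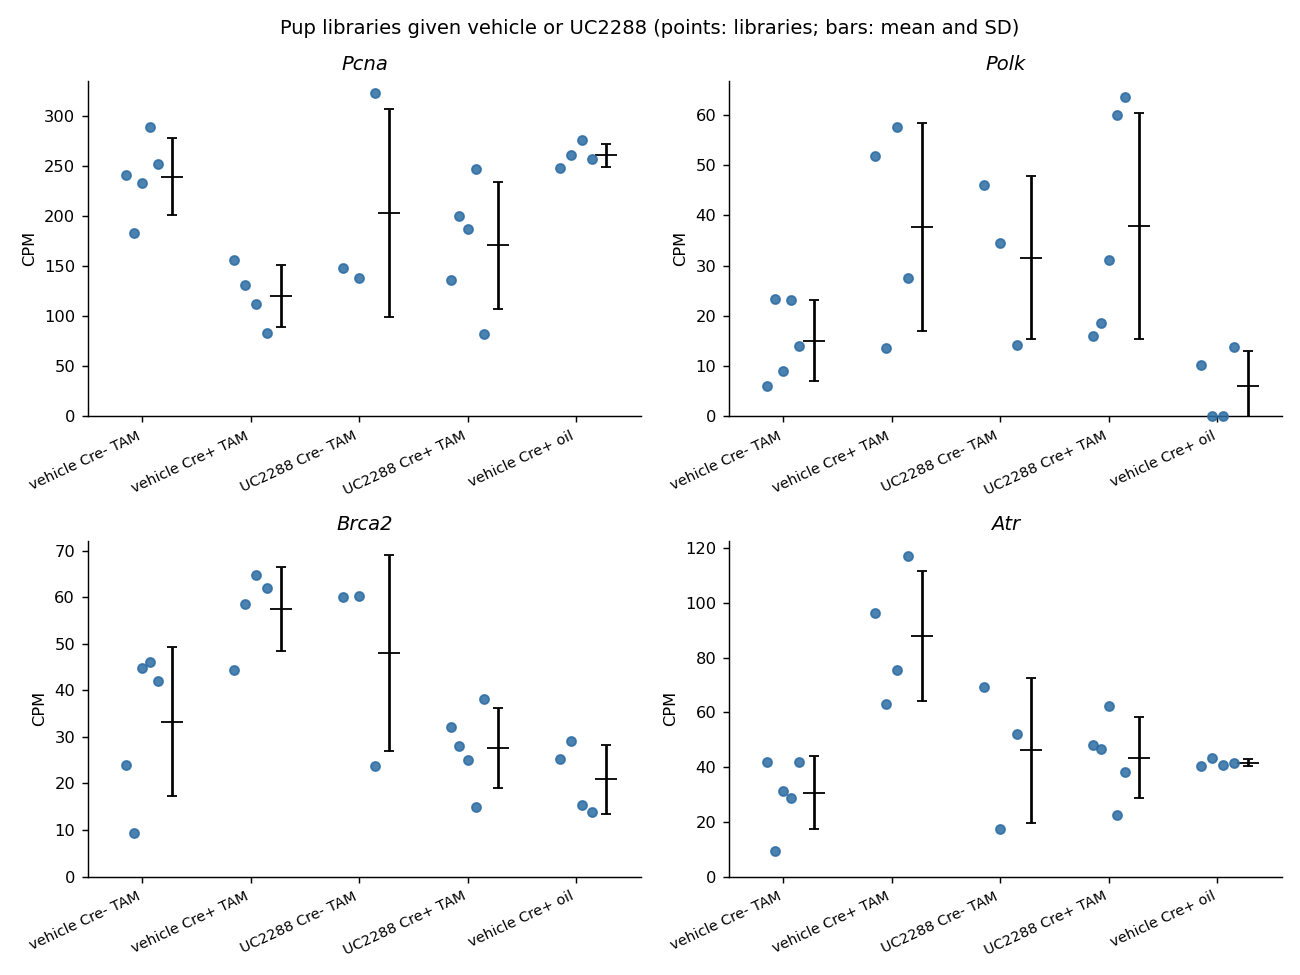
CPM of Pcna, Polk, Brca2 and Atr in each library of the vehicle and UC2288 table (points), with mean and SD (bars). Pcna is lowest in vehicle Cre+ TAM (82.7 to 156 CPM) and Atr is highest there (63.0 to 117 CPM).

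Atr and 2 other genes of the sensing and checkpoint roles had groups that did not overlap in column-total CPM without being called. Atr, the fork-stress kinase, lay at 40.5, 43.5, 40.8 and 41.6 CPM in oil and at 96.3, 63.0, 75.6 and 117 CPM with TAM (log2 fold change 0.92 ± 0.369, adjusted p 0.0538). Its adjusted p was 0.0441 with DESeq2 size factors and 0.0234 with column totals, and over all alternatives it ran from 0.0214 to 0.144. Rad50 lay at 40.5 to 76.2 CPM in oil and 76.5 to 122 CPM with TAM (0.71 ± 0.296, adjusted p 0.0621). The libraries at 76.2 and 76.5 CPM were oil replicate 4 and TAM replicate 2, with TMM factors of 0.9648 and 1.092. With TMM-scaled totals their order turns over, and the Rad50 groups overlap. Topbp1 lay at 43.5 to 70.8 and 90.0 to 113 CPM (0.62 ± 0.320, adjusted p 0.136). In all, 5 tested members had groups that did not overlap in column-total CPM, 4 higher and 1 lower. By the same measure 31.8% of all tested genes did not overlap. The nearest other member by p was Polb, with overlapping groups (0.83 ± 0.391, adjusted p 0.102). Atm, the break kinase, failed the low-count filter. It held 11, 5, 13 and 6 counts with TAM and 2, 0, 1 and 1 in oil, which is 37.9 ± 10.6 against 5.54 ± 4.23 CPM without overlap. In the fit with no low-count filter, over 20544 genes, Atm had a log2 fold change of 2.46 ± 0.712 (adjusted p 0.0114). Against Cre- TAM it was 1.66 (adjusted p 0.0595), and for UC2288 against vehicle in Cre+ it was -1.07 (0.661). Atm was singled out after its values were seen.

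Against vehicle Cre- TAM, which shares the TAM but has 2 intact Cx3cr1 alleles, 2 of 11 tested members were called, and 27.2% of all tested genes were. The same 2 members had groups that did not overlap, as 25% of all tested genes did. Pcna was lower in Cre+ TAM. The Cre- TAM libraries held 240, 183, 233, 288 and 252 CPM of Pcna, all above the 82.7 to 156 CPM of Cre+ TAM (log2 fold change -1.15 ± 0.273, adjusted p 0.00199). Atr was higher in Cre+ TAM. The Cre- TAM libraries held 42.03, 9.36, 31.4, 28.8 and 41.96 CPM of Atr, all below the 63.0 CPM of the lowest Cre+ TAM library (1.30 ± 0.353, adjusted p 0.00603). Those calls were made under all 18 alternatives run on this comparison, as was the Pcna call against oil under all 17 of its own. Polk (1.15 ± 0.565, adjusted p 0.13), Brca2 (0.58 ± 0.370, 0.254) and Lig1 (-0.36 ± 0.243, 0.286) were not called against Cre- TAM. Both comparisons use the same Cre+ TAM libraries, so they do not count as independent. The 2 control groups were also compared with each other, Cre+ oil against Cre- TAM, in a comparison added after seeing the data. No member was called there by edgeR, DESeq2 or limma-voom, with 1 of 11 at an unadjusted p below 0.05 (Rad50, lower in oil, 56.6 ± 17.4 against 89.4 ± 22.5 CPM), and 0% of all genes were called.

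**Figure D4:**
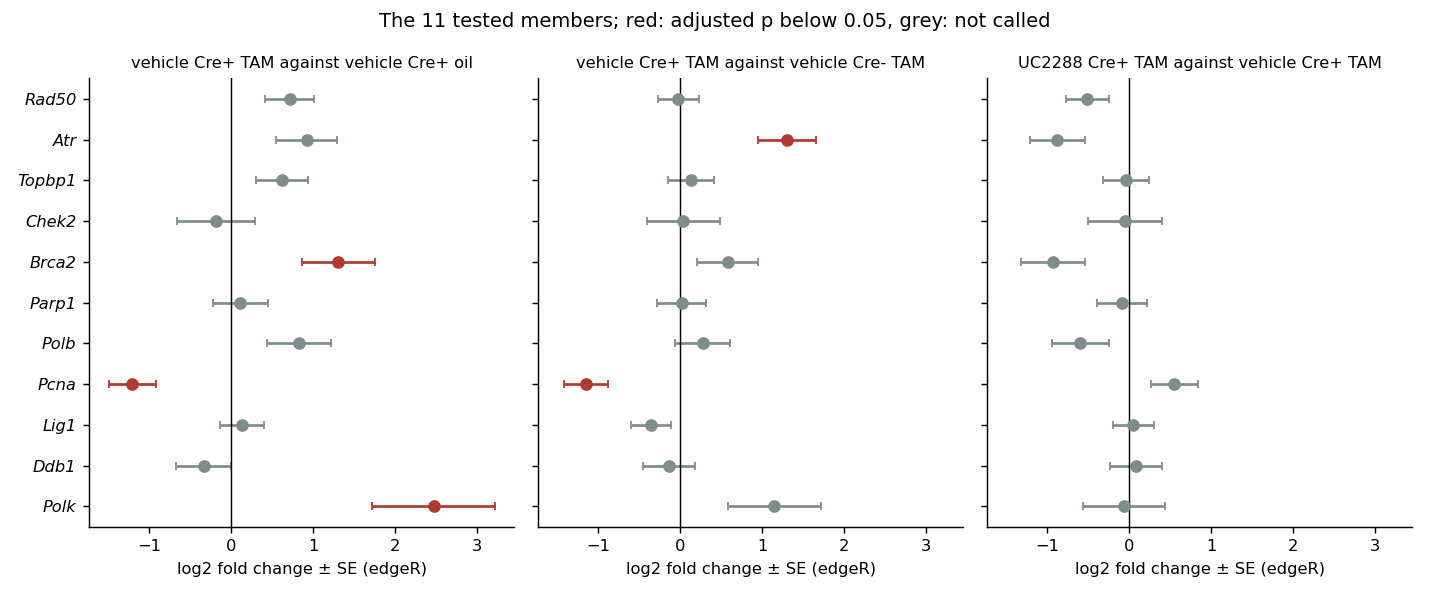
Log2 fold changes ± SE of the 11 tested members in 3 comparisons of the vehicle and UC2288 table, with called members in red. Pcna sits at -1.21 and -1.15 in the first pair of panels, and no member is called in the UC2288 panel.

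Other measures moved with the vehicle Cre+ TAM group. Summed markers of cycling cells (20 genes) were at 1192 to 1400 CPM there, against 1740 to 2111 in Cre+ oil and 1585 to 2204 in Cre- TAM. Of 19 tested cycling genes, 6 were called lower than in oil (Cdk1, Birc5, Ccnb2, Rrm2, Tk1 and Ccnb1) and 10 lower than in Cre- TAM, and none higher. The 7 microglia markers summed to 5503 to 6173 CPM in Cre+ TAM, 13600 to 17030 in oil and 11530 to 12840 in Cre- TAM. The 3 monocyte markers summed to 96.5 to 278 CPM, against 0 to 21.7 and 0 to 23.4, with Ly6c2 at 0 in all 3 groups, and the 2 neutrophil markers found in the table, S100a8 and S100a9, were at 0. The 5 border macrophage markers found summed to 82.7 to 187 CPM, against 291 to 357 and 267 to 462, and the 3 astrocyte markers found to 63.0 to 101 CPM, against 29.0 to 35.7 and 18.7 to 51.9. Detected genes numbered 11145 to 12681 in Cre+ TAM, 9948 to 11107 in oil and 10591 to 11143 in Cre- TAM. Mitochondrial transcripts took 7.76% to 9.59%, 8.93% to 12.3% and 11.1% to 15.9% of counts. The part of these in the results for Pcna, Polk, Brca2 and Atr was not tested, and in bulk libraries fewer cells of a type and less RNA per cell cannot be told apart. Scaling bears on the balance of directions: with column totals alone the median over all genes was 0.16 in place of 0.00 against oil and 0.21 in place of -0.01 against Cre- TAM. The share of called genes that were higher was then 63.7% in place of 51.3%, and 72.3% in place of 52.7%. The signs of the 4 members above did not change.

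UC2288 was compared with vehicle in Cre+ TAM mice to see how the members respond to the compound. The vehicle libraries are the same Cre+ TAM libraries that entered the comparisons above, so the results are not independent. The intervals are not adjusted for the number of genes. No member was called by edgeR, DESeq2 or limma-voom, and DESeq2 gave no adjusted p for Atr and Brca2. At an unadjusted p below 0.05 there were 2 of 11, both lower, and 0.727% of all genes were called. Atr was at 48.0, 46.5, 62.4, 22.5 and 38.1 CPM with UC2288, all below the 63.0 to 117 CPM of vehicle (log2 fold change -0.88 ± 0.337, 95% interval -1.54 to -0.22, adjusted p 0.178). Brca2 was at 32.0, 27.9, 24.96, 15.0 and 38.1 CPM, all below the 44.4 to 64.8 CPM of vehicle (-0.93 ± 0.386, interval -1.69 to -0.18, adjusted p 0.219). These 2 members had groups that did not overlap in column-total CPM, as 5.03% of all tested genes did. For Atr the gap was between 62.4 CPM (UC2288 replicate 3) and 63.0 CPM (vehicle replicate 2). Their TMM factors were 0.9699 and 1.092, and with TMM-scaled totals the Atr groups overlap. Pcna was at 136, 200, 187, 247 and 82.5 CPM and overlapped vehicle (0.55 ± 0.283, adjusted p 0.316). UC2288 Cre+ TAM replicate 3 stood apart from its group, with 14820 CPM of microglia markers where the group's lowest and median were 5748 and 6165. Leaving it out together with UC2288 Cre- TAM replicates 1 and 2 gave -1.03 for Atr and -0.91 for Brca2. Those replicates 1 and 2 were the closest pair of their group. Chi-square over its degrees of freedom was 2.85 between them, and 5.51 and 4.63 for each against replicate 3.

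In Cre- TAM mice UC2288 against vehicle gave no called member by any of the 3 tools and none at an unadjusted p below 0.05, with 0.0202% of all genes called. The nearest was Topbp1, at 121 to 138 CPM with UC2288 and 55.9 to 179 CPM with vehicle. With UC2288, Cre+ against Cre- gave no called member by any of the 3 tools and none at an unadjusted p below 0.05, and 4% of all genes were called. The difference between the UC2288 effects in Cre+ and Cre- gave no called member by any of the 3 tools and 3 at an unadjusted p below 0.05, with 1.94% of all genes called. It was -1.48 ± 0.544 for Atr (interval -2.55 to -0.41, adjusted p 0.118), -1.28 ± 0.579 for Brca2 (-2.42 to -0.15, 0.192) and 0.84 ± 0.403 for Pcna (0.05 to 1.63, 0.222). The vehicle Cre+ TAM libraries enter this difference too, and its intervals are likewise unadjusted. Pcna rested on 1 library here. The UC2288 Cre- TAM libraries held 148, 138 and 322 CPM, and without replicate 3, at 322, Pcna was called (1.48, adjusted p 0.017). With the 3 UC2288 libraries named above left out, it was 0.04, with 1 UC2288 Cre- TAM library remaining.

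Set against vehicle Cre+ oil, in a comparison added after seeing the data, UC2288 Cre+ TAM had 1 of 11 members called, and 10.5% of all genes. Polk was at 16.0, 18.6, 31.2, 59.9 and 63.5 CPM against at most 13.9 in oil, without overlap (2.40 ± 0.757, adjusted p 0.0349). Groups did not overlap in column-total CPM for 2 members, Polk and Pcna, and for 8.92% of all tested genes. The call was lost without UC2288 replicate 4 or 5 or without oil replicate 1, 2 or 3, and with limma-voom (0.0983). Pcna was again below every oil library in column-total CPM (170.6 ± 63.1 against 260.1 ± 11.5 CPM, -0.66 ± 0.269, adjusted p 0.117). UC2288 replicate 4 lay under oil replicate 1 by less than a single count is worth. Their TMM factors were 0.9588 and 0.9829, and with TMM-scaled totals the Pcna groups overlap. With the 3 libraries named above left out, Pcna was called as well (-0.72, adjusted p 0.0487), as it was without UC2288 Cre+ TAM replicate 4 alone (-0.82, 0.0418).

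In the postnatal set, microglia with the Littman Cre were compared with Cre- microglia, all with TAM. None of the 21 tested members was called by edgeR, DESeq2 or limma-voom, none had an unadjusted p below 0.05, and none had groups that did not overlap. Among all tested genes 7.8% were called and 5.86% did not overlap. The smallest p belonged to Lig1, at 31.9 to 128 CPM in Cre+ and 18.6 to 99.7 CPM in Cre- (log2 fold change 0.56 ± 0.280, adjusted p 0.264). Polb (0.41 ± 0.225, 0.319) and Ercc5, a nuclease of nucleotide excision repair (-0.37 ± 0.203, 0.329), came next. Pcna was at 70.2, 66.5, 43.5, 51.1 and 45.8 CPM in Cre+ and 39.5, 50.9, 63.9, 50.6 and 93.7 CPM in Cre-. Thus the groups lay over each other for the gene that was lower in vehicle Cre+ TAM. Cdkn1a was at 165 to 399 CPM in these Cre+ libraries and 40.7 to 63.9 CPM in Cre-. Of 18 tested cycling genes, 2 (Ccnb2 and Mki67) were called higher in Cre+ and none lower. Summed cycling markers overlapped, at 668 to 1403 CPM in Cre+ and 578 to 1253 CPM in Cre-. The 2 sets come from separate tables, and the difference between them was not tested.

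Postnatal Jung TAM against Jung oil gave no called member by the same 3 tools and 1 of 21 at an unadjusted p below 0.05, with 0.0848% of all genes called. That member was Topbp1 (54.4 ± 11.3 against 37.2 ± 10.8 CPM, 0.55 ± 0.266, adjusted p 0.879). Brca2 had groups that did not overlap, as 2.25% of all genes did, at 37.8 to 48.0 CPM with TAM and 25.5 to 37.2 CPM in oil (0.39 ± 0.260, adjusted p 0.929). The difference between the Littman Cre effect and the Jung TAM effect was called for no member by the 3 tools, for 1 of 21 at an unadjusted p below 0.05 (Polb, 0.76 ± 0.337, adjusted p 0.444), and for 0.353% of all genes.

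Pcna was higher in postnatal Littman than in postnatal Jung groups, in 2 comparisons added after seeing the data. In the first, Littman Cre- TAM against Jung oil, the line, the Cre allele, the reporter and TAM differ together. In the second, Littman Cre+ TAM against Jung TAM, the line and the reporter do. Age and TAM schedule are not labelled for each library, so they may differ as well in both. Pcna was at 16.8 to 37.5 CPM in Jung oil against 39.5 to 93.7 in Littman Cre- TAM (1.08 ± 0.258, adjusted p 0.025), where 1 of 21 members and 0.791% of all genes were called. It was at 26.6, 33.4, 37.3 and 14.5 CPM in Jung TAM against 43.5 to 70.2 in Littman Cre+ TAM (1.02 ± 0.279, adjusted p 0.0168), where 2 of 21 members and 6.74% of all genes were called. No Jung library reached a Littman one in either comparison. Lig1 was the other call in the second (81.2 ± 35.8 against 37.5 ± 18.1 CPM, 1.18 ± 0.334, adjusted p 0.0211), and its groups overlapped. Topbp1 had groups that did not overlap in the first (67.9 ± 13.7 against 37.2 ± 10.8 CPM, 0.86 ± 0.238, adjusted p 0.0625), and Ddb1, which brings damaged chromatin to a ubiquitin ligase, in the second (97.0 ± 6.88 against 71.5 ± 4.46 CPM, 0.49 ± 0.171, adjusted p 0.0762). These made 2 members without overlap in each comparison, where 2.87% and 7.97% of all tested genes did not overlap. Lig1 in the first was not called (57.8 ± 34.6 against 31.8 ± 13.2 CPM, 0.84 ± 0.345, adjusted p 0.272).

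These calls were not stable. The Pcna call against Jung oil was lost without Littman Cre- TAM replicate 3 or 5 or Jung oil replicate 2, 4 or 5 (adjusted p 0.0545 to 0.128), and with DESeq2 (0.0536) and limma-voom (0.0563). The Pcna call between the Cre+ groups was lost without Littman Cre+ TAM replicate 1 (0.066) or Jung TAM replicate 4 (0.0997). Lig1 was not called without Littman Cre+ TAM replicate 1 or 5 or Jung TAM replicate 3 or 4, or with DESeq2 (0.199) or limma-voom (0.0624). Summed cycling markers ran from 578 to 1253 CPM in Littman Cre- TAM and 308 to 620 in Jung oil, and from 668 to 1403 in Littman Cre+ TAM and 509 to 1444 in Jung TAM. Of 18 tested cycling genes, 2 were called higher in Littman in the first comparison (Rrm2 and Mki67, with 13 at an unadjusted p below 0.05 and a median log2 fold change of 0.955 over the 18). In the second 3 were called higher (Mcm6, Ccnb2 and Mki67, with 8 at an unadjusted p below 0.05 and a median of 0.559), and none was called lower in either. Their part in these results was not tested.

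**Figure D5:**
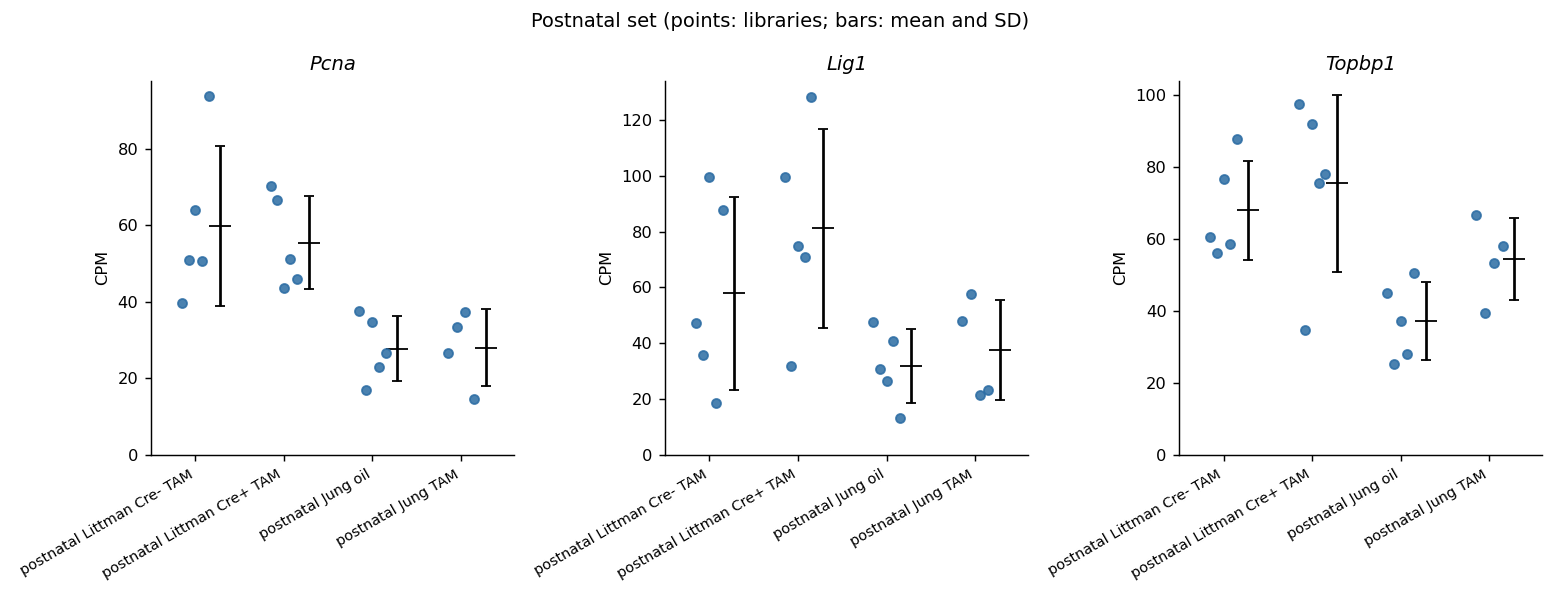
CPM of Pcna, Lig1 and Topbp1 in each postnatal library (points), with mean and SD (bars). Pcna spans 39.5 to 93.7 CPM in the Littman groups and 14.5 to 37.5 CPM in the Jung groups, while Cre+ and Cre- Littman libraries overlap for all 3 genes.

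In adults no member was called in any comparison by edgeR, DESeq2 or limma-voom. None of the 12 tested members had an unadjusted p below 0.05 for TAM against oil in adult Littman (0.0181% of all genes called) or in adult-titled Jung microglia (0% called). None had groups that did not overlap, where 3.92% and 1.9% of all tested genes had. Ercc5 had the smallest p in both, at 62.8 ± 19.9 CPM with TAM against 40.1 ± 15.4 in Littman oil (0.67 ± 0.349, adjusted p 0.998, n = 3 and 4), and 60.1 ± 5.88 against 45.4 ± 9.87 in Jung (0.44 ± 0.290, adjusted p 1, n = 4 each). Rad50 went 0.52 ± 0.282 in Littman and -0.33 ± 0.251 in Jung. Xpa in Littman (-0.40 ± 0.385) and Polb in Jung (0.35 ± 0.269) were the third by p. Pcna was low in all of these libraries, at 24.3 to 52.2 CPM in Littman and 26.6 to 73.9 CPM in Jung, and TAM and oil overlapped. By Xist and Y-linked transcripts, the 3 adult Littman TAM libraries were female, and 1 of the 4 oil libraries was male.

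In the BLZ-titled sets 9 members were tested, and again none was called by the 3 tools, none had an unadjusted p below 0.05 and none had groups without overlap. Among all genes 0.0581% were called for Littman TAM against oil and 0% for Jung, and 9.22% and 2.69% did not overlap. Pcna was at 60.1, 50.8, 35.6 and 44.1 CPM in Littman TAM and 47.2, 26.2 and 48.7 CPM in Littman oil, and Atr at 46.6 to 68.6 and 39.3 to 53.1 CPM. Cdkn1a was at 723.8 ± 68.2 CPM in the same Littman TAM libraries and 107.8 ± 34.6 CPM in oil. The smallest p values belonged to Rnf8 (0.43 ± 0.482, adjusted p 0.888), Brca2 (-0.54 ± 0.644, 0.899) and Ddb1 (-0.27 ± 0.340, 0.909) in Littman. In Jung they belonged to Parp1 (0.51 ± 0.283, 0.872), Atr (-0.52 ± 0.350, 0.886) and Rad50 (-0.38 ± 0.351, 0.915). The difference between the lines was called for no member by the 3 tools and for 0% of all genes by edgeR, with no member at an unadjusted p below 0.05, and was nearest for Atr (0.70 ± 0.507, adjusted p 0.741). All 3 Littman oil libraries were male and 3 of 4 Littman TAM libraries were female.

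Other genes of DNA repair were taken from a list of 135, which holds none of the members. Of these, 34 were tested in the vehicle set. Against Cre+ oil, 3 were called higher in Cre+ TAM (Rif1, Dclre1c and Trip12) and 3 lower (Rad21, H2ax and Hmgb1), and against Cre- TAM 2 higher (Dclre1c and Trip12) and the same 3 lower. These are 6 and 5 of 34, where 31.4% and 27.2% of all tested genes were called. RIF1 steers breaks to end joining, and its gene was at 119 ± 17.2 CPM in Cre+ TAM and 28.8 ± 10.9 in oil (1.93 ± 0.354, adjusted p 9.6e-05). Dclre1c encodes Artemis, the nuclease that opens hairpin ends for end joining, and was at 92.7 ± 17.0 CPM against 31.9 ± 20.9 in oil (1.41 ± 0.428, 0.0113) and 29.2 ± 13.1 in Cre- TAM (1.45 ± 0.390, 0.00585). TRIP12 is a ubiquitin ligase that limits RNF168, and its gene was at 148 ± 51.2 CPM against 67.2 ± 32.4 in oil (0.98 ± 0.323, 0.0195). H2ax, the histone variant that is phosphorylated around breaks, was at 32.4 ± 9.58 CPM against 81.0 ± 22.7 in oil (-1.41 ± 0.359, 0.00302) and 74.2 ± 25.1 in Cre- TAM (-1.30 ± 0.341, 0.00464). Rad21, a cohesin subunit, was at 97.8 ± 25.6 CPM against 169 ± 22.5 in oil (-0.88 ± 0.248, 0.00671). Hmgb1, an abundant chromatin protein, was at 123 ± 19.3 CPM against 237 ± 30.1 in oil (-1.07 ± 0.250, 0.00137). Whether Rif1, Dclre1c or Trip12 passed the low-count filter only through libraries where they are high was not examined. The shifts of cycling and microglia markers given above stand beside these results too, and their part was not tested. The median log2 fold change of the 34 was 0.24 against oil and 0.02 against Cre- TAM.

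With UC2288 in Cre+ mice, none of the 34 was called by edgeR against vehicle, with 3 at an unadjusted p below 0.05. The UC2288 difference between Cre+ and Cre- was called for 1, Gtf2h5, a subunit of the repair factor TFIIH (1.97 ± 0.546, adjusted p 0.0494). Against oil, UC2288 Cre+ TAM was higher for Rif1 (67.3 ± 30.0 CPM, 1.20 ± 0.373, 0.0322) and lower for Gtf2h2, another TFIIH subunit (169 ± 38.5 against 268 ± 22.4 CPM, -0.72 ± 0.206, 0.0199). In the postnatal set none of 60 tested was called by edgeR between Littman Cre+ and Cre- or between Jung TAM and oil, with 2 and 4 at an unadjusted p below 0.05. Between the Littman and Jung groups, Neil3, a DNA glycosylase of dividing cells, was higher in Littman Cre- TAM than in Jung oil (30.3 ± 19.2 against 6.77 ± 3.40 CPM, 2.10 ± 0.525, adjusted p 0.0344). Uvssa, of transcription-coupled repair, was lower in Littman Cre+ TAM than in Jung TAM (70.8 ± 10.1 against 109 ± 13.6 CPM, -0.57 ± 0.173, 0.0345). None of the 28 tested in each adult table, or of the 24 in the BLZ-titled table, was called by edgeR, with 0 to 5 at an unadjusted p below 0.05 in a comparison.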

How the data were processed

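Whole-number counts per gene were deposited by the authors in 5 tables, 1 column per library. Per the submitters' processing notes, UMI-tools, Trim Galore, HISAT2, featureCounts and GRCm38 were used in making them. Versions, annotation and strandedness were not given in the sources used here. Without a strand setting, reads of a gene and of an antisense partner cannot be told apart. The counts come from molecular identifiers of 3' tags, so the depth of 116083 to 450461 counts per library limits the precision. The spread between libraries of a group, given below, limits it too.

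Groups were taken from sample titles. Each table was fitted alone with all its groups by edgeR's quasi-likelihood test (edgeR 4.0.16, R 4.3.3), with TMM scaling, filterByExpr by group and Benjamini-Hochberg adjustment over all tested genes. A call is an adjusted p below 0.05, SE is the size of the log2 fold change over the square root of F, and ± beside CPM is the SD. CPM uses column totals. DESeq2 1.42.0 and limma-voom 3.58.1 were alternatives, and the test was checked on simulated data. Members named were those called, those whose groups did not overlap, and the 3 with the smallest p per comparison. The members and lists were chosen with earlier results of these data known. A set of 4 comparisons, and the fit without 3 UC2288 libraries, were added after seeing the data. Among 113 pairs of same-group libraries, none agreed within sampling noise (chi-square over its degrees of freedom at least 1.09). Promoter sequences are RefSeq's (GRCm38.p6).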

Additional observations from a re-analysis of the deposited data

Results flagged for a closer look

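The summed level of the 42 members in adult-titled Jung oil replicate 4 was 828.1 CPM, far below the other libraries of its group, whose median with it was 979.3 CPM and whose highest was 989.1 CPM. Topbp1, the activator of ATR, was at 178.8 CPM in vehicle Cre- TAM replicate 4, while the other 4 libraries of the group lay between 55.9 and 62.7 CPM. In each case 1 library lay far from the rest of its group. Chance alone marks about 1 in 20 such checks in this way. Of 50 checks, each of 1 group in 1 measure, 2 were so marked. Checks of the same group share its libraries, so they are not independent.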

How the results depend on the processing

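The counts of members called kept within 1.5 times of the reported value under the alternatives run, apart from those given here, whose causes were not tested unless fewer samples or genes are named. For vehicle Cre+ TAM against oil (3 reported) the count was 5 with DESeq2 size factors or column totals, which added Atr and Rad50, and 1 to 5 with 1 library left out, at 5 without Cre+ TAM replicate 2. For UC2288 Cre+ TAM against oil (1 reported) it was 0 with limma-voom and with the replicate block. It was also 0 with only the groups compared, where fewer members were tested. The count was higher without the 3 UC2288 libraries named above, and 0 to 1 with 1 library left out. For the UC2288 difference between Cre+ and Cre- (0 reported) it was 0 to 1 with 1 library left out. For postnatal Littman Cre- TAM against Jung oil (1 reported) it was 2 with no low-count filter, with the replicate block and with only the groups compared, 0 with DESeq2 and limma-voom, and 0 to 2 with 1 library left out. For Littman Cre+ TAM against Jung TAM (2 reported) it was 1 with DESeq2 and limma-voom, and 0 to 3 with 1 library left out. In no comparison did every pair of same-numbered libraries deviate together with a correlation over 0.1, so the labels' numbers were not taken to pair them. In adult-titled Jung TAM against oil 3 of 4 pairs did (0.341, 0.158 and 0.248, with -0.161 for replicate 3), as did replicate 1 of UC2288 Cre+ against Cre- TAM (0.344) and replicate 3 of BLZ-titled Jung TAM against oil (0.16). The block moved no other count of members called by over 1.5 times. Summed member levels with TMM were 1345 CPM in vehicle Cre+ TAM and 824.5 CPM in BLZ-titled Littman oil. Signs turned for Polk in UC2288 against vehicle Cre- TAM (-0.072) and Brca2 in UC2288 Cre+ against Cre- TAM (0.119) without the 3 UC2288 libraries, and for Ddb1 in BLZ-titled Littman TAM against oil (0.0533 without oil replicate 3, with a range of -0.492 to 0.0533). None of these was called.

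Counts over all genes moved more. UC2288 against vehicle in Cre+ gave 36 genes, and 21 with DESeq2 size factors, 15 with column totals, 132 with no low-count filter, 120 with DESeq2, 5 with limma-voom, 22 with sex as a covariate and 2 with only the groups compared. The UC2288 difference gave 96, and 179 with no filter, 58 with the block, 46 with sex, 33 with only the groups compared and 0 without the 3 libraries. With 1 library left out these ran from 1 to 266 and from 1 to 533. Littman Cre- TAM against Jung oil gave 56, and 145, 105, 85, 116, 35 and 37 with no filter, the block, sex, only the groups compared, DESeq2 and limma-voom. With no filter, the counts for postnatal Jung, the postnatal difference, UC2288 in Cre-, Cre+ oil against Cre- TAM, adult Littman, adult-titled Jung, BLZ-titled Littman and the BLZ-titled difference were 15, 55, 36, 15, 10, 6, 44 and 10, in place of 6, 25, 1, 0, 1, 0, 3 and 0. DESeq2 gave 314 in place of 477 for Littman Cre+ against Jung TAM and 42 for the postnatal difference. With only the groups compared, UC2288 Cre+ against Cre- gave 111 in place of 198 and against oil 310 in place of 519. With column totals the share of calls that were higher was 46.8% in place of 58.5% for postnatal Littman Cre+ against Cre-, 44.9% in place of 56.6% against Jung TAM, 56.7% in place of 72% for the postnatal difference and 17.9% in place of 49% for the UC2288 difference. Members at few counts per library limit what the depth can show.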
